A study of Mus musculus with 9 samples.

Results

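The Cyp2a and Cyp2b subfamilies were represented by 9 genes of the 21873 in the liver mRNA table, namely Cyp2a4, Cyp2a5, Cyp2a12, Cyp2a22, Cyp2b9, Cyp2b10, Cyp2b13, Cyp2b19 and Cyp2b23. They were taken from the table by gene symbol and had been chosen by their FPKM in the control, TAA and recovery groups, so these values are given as a description and without a test. A further row whose symbol begins the same way, Cyp2ab1, lies on another chromosome and was not counted as a member. Of the 9 members, 6 reached a mean of at least 0.1 FPKM (fragments per kilobase of gene and per M mapped fragments) over the 9 libraries, and Cyp2b13, Cyp2b19 and Cyp2b23 did not.

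Cytochromes P450 of these subfamilies are heme proteins of the endoplasmic reticulum that oxidize drugs, nicotine, coumarin and steroids with electrons passed on by P450 oxidoreductase. Hepatocytes are their main site in liver. Cyp2b10 is the classical target of the constitutive androstane receptor CAR, the receptor through which phenobarbital acts, and Cyp2a5 is known to respond to several kinds of liver injury. In mice, Cyp2a4, Cyp2b9 and Cyp2b13 are known for higher expression in female than in male liver, a difference that follows the sex-specific pattern of growth hormone secretion.

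All libraries came from livers of male C57BL/6 mice aged 8 weeks at the start, with 3 mice per group and no genetic alteration named. The control group was injected with saline for 8 weeks. The TAA group received thioacetamide, a hepatotoxicant that hepatocytes themselves convert to its reactive form, by intraperitoneal injection every 3 days over the same 8 weeks, and livers of both groups were taken 3 days after the last injection. The recovery group received the same TAA course and was then left untreated for 8 weeks. Recovery mice were thus 8 weeks older at collection, older control mice were not analysed here, and age and recovery cannot be told apart. The questions addressed are which genes differ in fibrotic liver and which of these differences are still present after TAA withdrawal.

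Depth, judged by the step that a single fragment makes in the lowest values, came to 26.8 to 40.6 M fragments per library. FPKM were put on a common scale by size factors taken from the genes detected in every library, which ran from 0.827 to 0.878 for control, from 1.29 to 1.38 for TAA and from 0.893 to 0.907 for recovery livers. Relative to control livers, TAA livers were lowered by a log2 value of 0.64 through this scaling, which bears on each small difference below. All 10 hepatocyte markers were detected in every library, with a summed level of 44093 to 47779 scaled FPKM in control, 26428 to 33973 in TAA and 53626 to 55493 in recovery livers. In TAA against control, 5 of them were called lower with limma (median log2 difference -0.998), against 1 lower as deposited (median -0.36) and 2 higher and 0 lower after quantile normalization (median 0.06). Summed cholangiocyte markers (7 genes) ranged from 18.6 to 25.0, from 300 to 448 and from 33.0 to 43.9 scaled FPKM in the same order, and summed stellate cell and myofibroblast markers (8 genes, of which Timp1 was at 0 in a library) from 15.7 to 16.5, from 193 to 290 and from 15.2 to 25.6. The part of these shifts in the results below was not tested, and in RNA of whole liver fewer cells of a type and less RNA per cell cannot be told apart.

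The members lie in a single cluster on chromosome 7, at chr7:25897620-27037375 of the mouse genome build GRCm38 (mm10), which spans 1.14 megabases. From the Cyp2b10 side, the order is Cyp2b10, Cyp2b13, Cyp2b9, Cyp2a4, Cyp2b23, Cyp2b19, Cyp2a5, Cyp2a22 and Cyp2a12. Every member is annotated as protein coding in GENCODE M21, with 9 exons each and 10 for Cyp2b10. The coding sequences of Cyp2a4 and Cyp2a5 were 98.4% identical (23 mismatches over 1482 aligned bases), those of Cyp2a12 and Cyp2a22 97.0% and those of Cyp2b9 and Cyp2b13 92.7%, whereas Cyp2a and Cyp2b members matched each other at 61.4% to 64.2%. Fragments from the closest copies may therefore have been counted at the wrong gene. Of the 150-base stretches of the annotated transcript, 4.22% in Cyp2a4 were found unchanged in another Cyp2 gene, as were 5.79% in Cyp2a5, 3.72% in Cyp2a12 and 3.46% in Cyp2a22, and none was in any of the 5 Cyp2b members.

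The sequences in front of the start sites are shown because the closest copies differed so widely in expression. RefSeq (GRCm38.p6) gave a promoter window for all 9 members. The upstream parts of Cyp2a4 and Cyp2a5, both on the plus strand, differed at 4 of 216 aligned bases. Both are printed up to the first annotated transcribed base, with the differing bases in capitals.
Cyp2a4 (chr7:26306942-26307168): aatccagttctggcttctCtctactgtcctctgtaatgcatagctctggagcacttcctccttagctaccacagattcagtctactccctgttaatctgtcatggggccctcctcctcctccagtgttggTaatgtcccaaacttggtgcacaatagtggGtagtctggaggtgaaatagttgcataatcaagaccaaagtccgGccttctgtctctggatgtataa
Cyp2a5 (chr7:26835089-26835304): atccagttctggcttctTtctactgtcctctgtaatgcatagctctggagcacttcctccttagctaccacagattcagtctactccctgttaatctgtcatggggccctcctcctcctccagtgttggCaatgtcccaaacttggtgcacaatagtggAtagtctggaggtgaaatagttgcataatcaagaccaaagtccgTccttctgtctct

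Despite this 98.1% identity upstream, Cyp2a4, which encodes a steroid hydroxylase, was the member with the widest range of levels. Cyp2a5, which encodes coumarin hydroxylase, was among the steadiest on scaled FPKM only. In control livers, Cyp2a4 was at 1.83, 1.77 and 1.04 scaled FPKM. In TAA livers, it was at 144, 183 and 144 scaled FPKM. In recovery livers, it was at 1.89, 1.17 and 1.83 scaled FPKM. The TAA libraries were thus far above all others, and control and recovery libraries overlapped. The mean was 1.55 ± 0.439 (SD, n = 3) in control, 157 ± 22.7 in TAA and 1.63 ± 0.400 in recovery livers, a ratio of 101 between TAA and control means. On the scale of log2(scaled FPKM + 0.1), the difference was 6.61 (SE 0.21) between TAA and control, -6.52 (SE 0.19) between recovery and TAA and 0.08 (SE 0.28) between recovery and control. Ranked among all genes in the table, Cyp2a4 stood at percentile 55.7 in control livers and at percentile 99.1 in TAA livers.

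**Figure D1:**
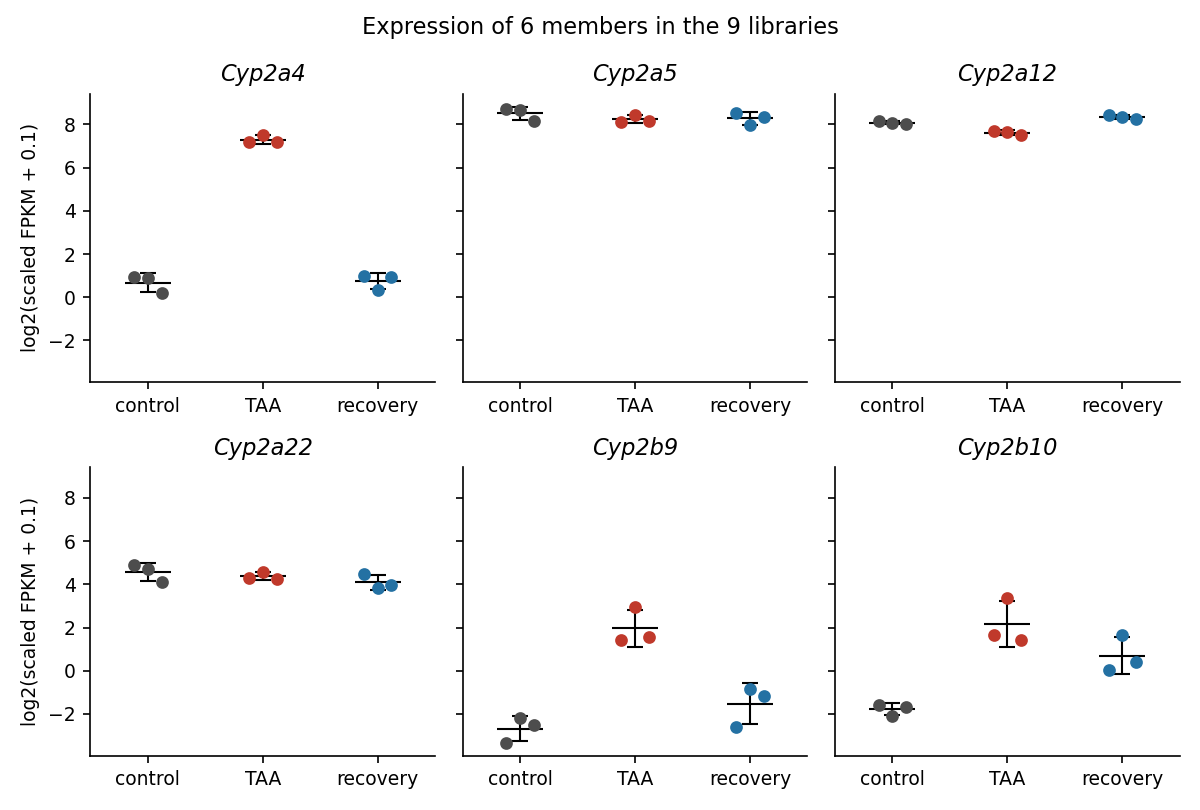
Level of the 6 members above the detection filter in each library, as log2(scaled FPKM + 0.1) on the vertical axis, by group on the horizontal axis. Points are single mice and bars show mean ± SD (n = 3), and the 3 TAA libraries lie above all control libraries for Cyp2a4, Cyp2b9 and Cyp2b10 and below them for Cyp2a12.

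Cyp2a5 was abundant in every library. It was at 424, 402 and 286 scaled FPKM in control livers, at 279, 348 and 286 in TAA livers and at 372, 249 and 320 in recovery livers, and the 3 groups overlapped. The log2 difference between TAA and control was -0.27 (SE 0.17) on scaled FPKM, but turned to 0.37 on FPKM as deposited and to 0.95 after quantile normalization. Between recovery and TAA it was 0.03 (SE 0.16) on scaled FPKM, against -0.53 as deposited and -1.07 with quantile normalization. No direction can therefore be given for Cyp2a5, whereas the difference of Cyp2a4 between TAA and control kept its sign and lay between 6.61 and 7.23 under the same 3 scalings.

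The ratio of the near-identical copies is the same on scaled and on deposited FPKM, since the scaling used 1 factor per library. It is not the same after quantile normalization, where Cyp2a4 averaged 0.602% of the pair in control, 30.3% in TAA and 0.664% in recovery livers. The log2 difference of Cyp2a4 between TAA and control exceeded that of Cyp2a5 by 6.88 on scaled FPKM, by 6.86 as deposited and by 6.09 with quantile normalization. Cyp2a4 made up 0.430%, 0.437% and 0.362% of the summed Cyp2a4 and Cyp2a5 FPKM in control livers. It made up 34.0%, 34.5% and 33.5% in TAA livers, and 0.504%, 0.467% and 0.570% in recovery livers. The TAA values were far above the rest and close to each other (34.0% ± 0.486, SD, n = 3), and every recovery value was above every control value by a small margin, although these ranges overlapped after quantile normalization. The part of Cyp2a5 reads in the low Cyp2a4 values of control and recovery livers was not tested. The ratio of 101 between TAA and control means of Cyp2a4 rests on these low values. Added together, Cyp2a4 and Cyp2a5 reached 372 ± 74.3 scaled FPKM in control, 461 ± 60.8 in TAA and 315 ± 62.1 in recovery livers, with a log2 difference of 0.32 (SE 0.17) between TAA and control and of -0.56 (SE 0.17) between recovery and TAA. As deposited, the pair reached 316 ± 55.6, 612 ± 80.8 and 284 ± 56.8 FPKM in the same order, without overlap between TAA and the other libraries.

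Cyp2a12, which encodes a testosterone hydroxylase, varied least within groups, with a coefficient of variation of 4.43% to 6.94%. It was at 282, 270 and 258 scaled FPKM in control livers, at 206, 203 and 181 in TAA livers and at 346, 323 and 302 in recovery livers. The groups did not overlap, with TAA libraries lowest and recovery libraries highest. The log2 difference was -0.46 (SE 0.09) between TAA and control, where it turned to 0.18 on FPKM as deposited and to 0.62 after quantile normalization. It was 0.72 (SE 0.10) between recovery and TAA, against 0.16 as deposited and -0.28 with quantile normalization. Between recovery and control it was 0.26 (SE 0.08), against 0.34 and 0.33 under those scalings, so that only the higher level in recovery than in control livers kept its sign under all 3 scalings.

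Cyp2a22 was at 30.0, 25.8 and 17.0 scaled FPKM in control livers, at 19.4, 23.8 and 19.0 in TAA livers and at 21.9, 14.1 and 15.6 in recovery livers. The groups overlapped, and the difference between TAA and control was -0.19 (SE 0.21) on the log2 scale, turning to 0.44 on FPKM as deposited and to 0.14 after quantile normalization. Between recovery and TAA it was -0.29 (SE 0.17), against -0.85 as deposited, where the groups did not overlap, and -0.56 with quantile normalization. Between recovery and control it was -0.48 (SE 0.25), against -0.41 and -0.42, so that the lower values in recovery livers kept their sign under all 3 scalings. The locus given for Cyp2a22 in the deposited table, chr7:26835184-26952738, encloses that of Cyp2a5, which lies on the opposite strand, whereas GENCODE M21 places Cyp2a22 at chr7:26931631-26939384. The library kit does not mark the strand, so reads of overlapping genes cannot be told apart. Cyp2a22 amounted to 4.88% to 7.08% of the Cyp2a5 FPKM in the 9 libraries. Of all pairs of the 6 members above the filter, Cyp2a5 and Cyp2a22 had the most alike profiles, with a root mean square difference of 0.16 log2 units over the 9 libraries, each profile centred on its mean. The part of overlapping reads in these values was not tested.

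Together, the 4 Cyp2a members summed to 666 ± 92.2 scaled FPKM in control, 678 ± 69.0 in TAA and 656 ± 78.9 in recovery livers (SD, n = 3). On this scale the sums overlapped between groups. As deposited they were 567 ± 63.8, 901 ± 87.8 and 590 ± 72.1 FPKM, and after quantile normalization 523 ± 57.8, 1143 ± 159 and 552 ± 67.0, both without overlap between TAA and the other libraries. On scaled FPKM, Cyp2a4 was the fourth of the 4 in control livers and came close to Cyp2a12 in TAA livers. In TAA livers, the Cyp2a12 range of 181 to 206 and the Cyp2a4 range of 144 to 183 scaled FPKM overlapped. In control livers, each Cyp2a5 value was above each Cyp2a12 value, and in recovery livers their ranges overlapped.

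**Figure D2:**
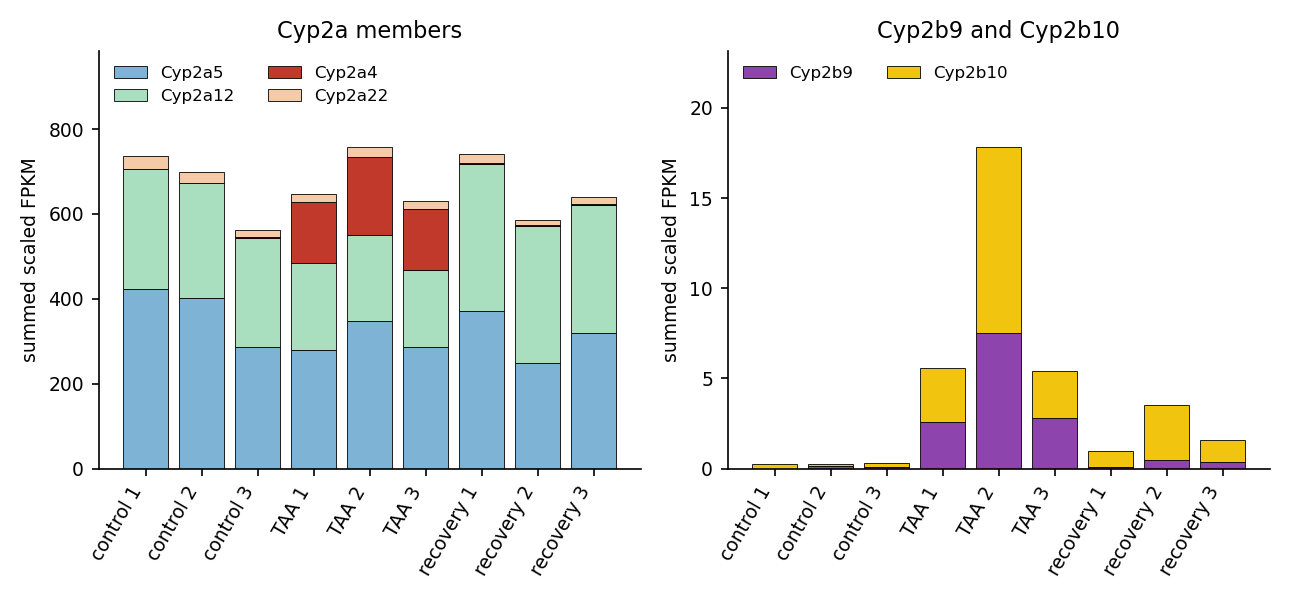
Scaled FPKM (vertical axes) of the 4 Cyp2a members (left) and of Cyp2b9 and Cyp2b10 (right), stacked for each of the 9 libraries (horizontal axes). The Cyp2a total stays between 562 and 757 on this scale, whereas as deposited it was 835 to 1000.2 FPKM in TAA and 494 to 667 in the other libraries. Cyp2a4 forms a visible segment in the 3 TAA libraries only, and the Cyp2b bars are highest in TAA libraries.

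The Cyp2b members were low in control livers. Cyp2b9 and Cyp2b13, the closest copies among the Cyp2b members, both on the plus strand, differed at 2 of 250 upstream bases (capitals), and Cyp2b10, also on the plus strand, is shown beside them because its upstream part was less alike, at 75.7% identity with Cyp2b9.
Cyp2b9 (chr7:26173159-26173408): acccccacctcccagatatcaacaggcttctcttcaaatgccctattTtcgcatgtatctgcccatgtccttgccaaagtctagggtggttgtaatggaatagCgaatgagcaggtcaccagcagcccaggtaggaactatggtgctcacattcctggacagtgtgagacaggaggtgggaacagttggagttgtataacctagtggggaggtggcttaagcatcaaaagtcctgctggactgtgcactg
Cyp2b13 (chr7:26061245-26061494): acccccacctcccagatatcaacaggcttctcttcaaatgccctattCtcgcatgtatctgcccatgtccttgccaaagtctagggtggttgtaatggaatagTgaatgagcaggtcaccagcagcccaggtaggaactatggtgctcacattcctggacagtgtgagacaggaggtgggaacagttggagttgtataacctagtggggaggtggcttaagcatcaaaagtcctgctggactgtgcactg
Cyp2b10 (chr7:25897408-25897619): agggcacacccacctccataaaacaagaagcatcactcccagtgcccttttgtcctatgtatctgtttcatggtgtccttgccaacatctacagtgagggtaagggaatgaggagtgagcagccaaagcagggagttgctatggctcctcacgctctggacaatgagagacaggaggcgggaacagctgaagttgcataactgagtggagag

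Cyp2b10, the classical CAR target, was at 0.233, 0.136 and 0.215 scaled FPKM in control livers. In TAA livers, it was at 3.05, 10.3 and 2.61 scaled FPKM. In recovery livers, it was at 0.914, 3.08 and 1.21 scaled FPKM. Control libraries were below all others, and recovery libraries overlapped the TAA libraries at the upper end. The mean was 0.194 ± 0.0517 in control, 5.32 ± 4.32 in TAA and 1.74 ± 1.18 in recovery livers (SD, n = 3). The log2 difference was 3.94 (SE 0.48) between TAA and control, -1.46 (SE 0.58) between recovery and TAA and 2.47 (SE 0.43) between recovery and control. On the log2 scale, 62.9% of the difference between TAA and control was thus still present in recovery livers, against 1.25% for Cyp2a4 and 24.8% for Cyp2b9. On the linear scale of group means, these shares were 30.1%, 0.0545% and 5.39%. The 30.1% of Cyp2b10 rests on single libraries, since it was 58.6% without TAA 2 and 16.9% without recovery 2. The 5.39% of Cyp2b9 was 8.69% without TAA 2 and 3.38% without recovery 2, and for Cyp2a4 the linear share ran from -0.109% (without control 3) to 0.203% (without recovery 2). The log2 share of Cyp2b10 ran from 50.4% (without recovery 2) to 74.4% (without TAA 2). That of Cyp2b9 ran from 17.3% (without recovery 2) to 36.4% (without recovery 1). Log2 shares also depend on the 0.1 added to each value. For Cyp2b10, leaving out any 1 of the 6 libraries left a log2 difference between recovery and control of 1.99 to 2.81. Without TAA 2, the library with the highest Cyp2b10, its difference was 3.32 between TAA and control and -0.85 between recovery and TAA.

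Cyp2b9, known as a female-predominant form, was at 0, 0.122 and 0.0729 scaled FPKM in control livers. In TAA livers, it was at 2.55, 7.52 and 2.83 scaled FPKM. In recovery livers, it was at 0.0655, 0.463 and 0.351 scaled FPKM. TAA libraries were above all others, and recovery and control libraries overlapped. The control values correspond to about 0, 7 and 4 fragments and the TAA values to about 250, 724 and 281, so the size of the change is poorly fixed. The log2 difference between TAA and control was 4.64 (SE 0.46) with 0.1 added to each value and 6.31 with 0.01. That between recovery and TAA was -3.49 (SE 0.54), against -4.02 with 0.01 added and -1.93 with 1.

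Cyp2b13 stayed below the filter, although its upstream part was 99.2% identical to that of Cyp2b9. Its values correspond to about 0, 1 and 0 fragments in control livers, 2, 7 and 4 in TAA livers and 0, 0 and 2 in recovery livers. Its highest value, 0.0705 scaled FPKM, was in the TAA library with the highest Cyp2b9. Cyp2b19, known as an epoxygenase of skin, was above 0 only in TAA 3, at 0.00564 scaled FPKM. Cyp2b23 was listed at 0 in all 9 libraries, where 3 fragments, the upper limit that a count of 0 allows, would give an FPKM of 0.0338 to 0.0511. Such limits cover counting error only.

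The Cyp2b sum was 0.0316% to 0.0511% of the summed FPKM of all 9 members in control livers, 0.859% to 2.31% in TAA livers and 0.132% to 0.601% in recovery livers. These 3 ranges did not overlap. All 9 members together took 0.128% to 0.169% of the summed FPKM of all genes in control, 0.250% to 0.310% in TAA and 0.139% to 0.178% in recovery livers. Among single mice, TAA 2 had the highest value of its group for Cyp2a4, Cyp2a5, Cyp2a22, Cyp2b9, Cyp2b10 and Cyp2b13, but not for Cyp2a12. Recovery 2 had the highest Cyp2b9 and Cyp2b10 of its group and the lowest Cyp2a4, Cyp2a5 and Cyp2a22. Control 3 was lowest of its group in all 4 Cyp2a members. The coefficient of variation within groups was 12.6% to 28.4% for Cyp2a4, Cyp2a5 and Cyp2a22, and 26.6% to 94.5% for Cyp2b9 and Cyp2b10.

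The study's criteria for DEGs (FDR < 0.05, fold change of 2 or more) were applied with limma to the 14094 genes that passed the filter. Between TAA and control, 3 members met them (Cyp2a4, Cyp2b9 and Cyp2b10, all higher), where 25.0% of all tested genes were called, 17.0% higher and 8.02% lower. Between recovery and TAA, Cyp2a4 and Cyp2b9 met them, both lower, where 21.4% of tested genes were called, 7.12% higher and 14.3% lower. Between recovery and control, Cyp2b10 alone met them, where 0.993% of tested genes were called, 0.582% higher and 0.412% lower. Cyp2b10 no longer did so when any 1 of the 6 libraries was left out, with 1 added to each value in place of 0.1, without the filter or without the mean-variance trend. On scaled FPKM, the groups did not overlap between TAA and control for 3 members that were higher and for Cyp2a12, which was lower, against 32.6% and 31.0% of tested genes. Between recovery and TAA, Cyp2a12 was higher and Cyp2a4 and Cyp2b9 were lower without overlap, against 29.4% and 31.0%, and between recovery and control Cyp2a12 and Cyp2b10 were higher without overlap, against 14.6% of tested genes higher and 15.6% lower. On FPKM as deposited, all 6 members above the filter were higher in TAA than in control livers without overlap, Cyp2a12 included, as were 65.8% of tested genes, with 9.39% lower. Between recovery and TAA, 5 of the 6 were then lower and Cyp2a12 higher, against 63.1% lower and 9.17% higher, and between recovery and control the same 2 members were higher, against 19.9% higher and 10.4% lower. Since these comparisons chose the members, the counts are given as a description. Any 2 of the 3 comparisons share the libraries of a group.

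**Figure D3:**
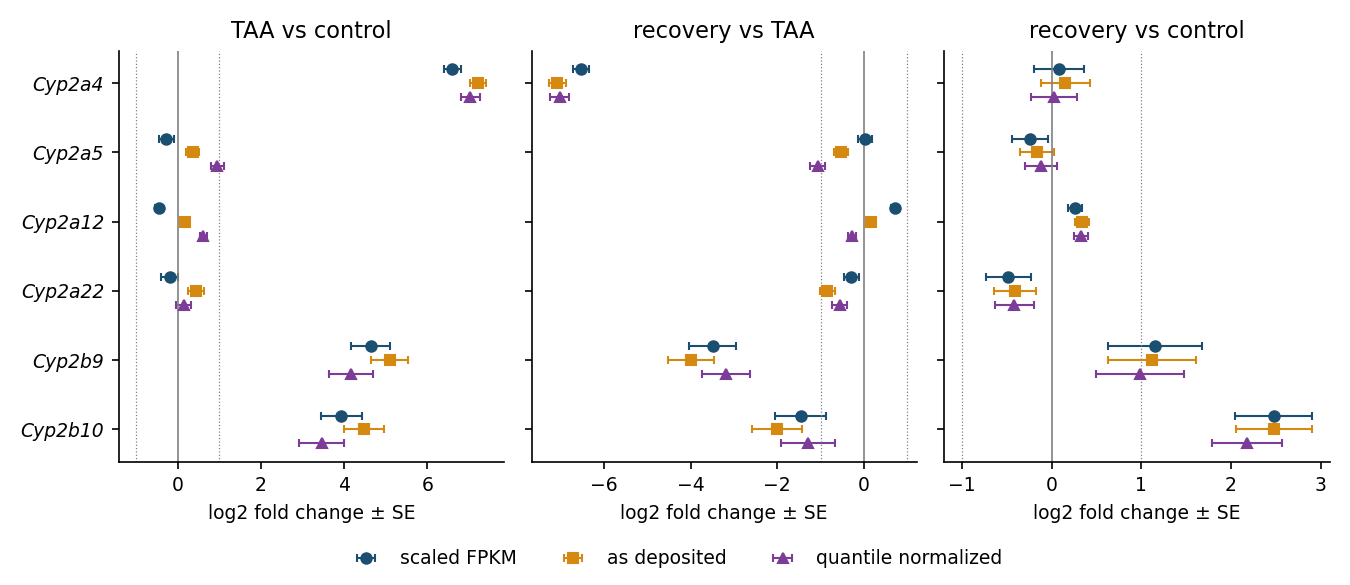
Log2 fold change ± SE (horizontal axes) of the 6 members above the filter (vertical axis) in the 3 comparisons, on scaled FPKM, on FPKM as deposited and after quantile normalization. Dotted lines mark a fold change of 2 in either direction, and Cyp2a4, Cyp2b9 and Cyp2b10 lie to the right of 0 in TAA against control under all 3 scalings while Cyp2a5, Cyp2a12 and Cyp2a22 change sides.

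Along the cluster, the members with a large difference between TAA and control (Cyp2b10, Cyp2b9 and Cyp2a4) started within 410 kb of the Cyp2b10 start, and Cyp2a22, Cyp2a5 and Cyp2a12 lay at 938 kb or further. Cyp2b13, between Cyp2b10 and Cyp2b9, was below the filter. Between the outermost members lay 15 genes in the table, of which 6 were no members, and only Cyp2g1 among these 6 passed the filter. Cyp2g1, a P450 of olfactory tissue, was at 0.621 ± 0.398 scaled FPKM in control, 0.437 ± 0.302 in TAA and 0.222 ± 0.0171 in recovery livers, with a log2 difference between TAA and control of -0.43 (limma, Benjamini-Hochberg adjusted p = 0.470). After quantile normalization this difference was -1.28 (limma adjusted p = 0.0499). Between recovery and TAA it was -0.60 (adjusted p = 0.209) on scaled FPKM, against -1.03 (adjusted p = 0.0381) as deposited. Just outside, Cyp2f2, a periportal P450 of naphthalene oxidation, averaged 355 ± 26.3, 301 ± 9.52 and 556 ± 67.9 scaled FPKM. Its log2 difference was -0.23 (limma, Benjamini-Hochberg adjusted p = 0.0763) between TAA and control, where it turned to 1.01 after quantile normalization. Between recovery and TAA, the Cyp2f2 difference was 0.88 (adjusted p = 5.48e-04). The log2 size factors of these 2 groups differed by -0.56, so this rise was smaller as deposited. On the other side, Cyp2s1 averaged 0.0485 scaled FPKM in control, 0.368 in TAA and 0.145 in recovery livers and passed the filter only through its TAA values. Its log2 difference between TAA and control was 1.61 (limma adjusted p = 0.00649), which depends in part on that filter. The call did not hold with 1 added to each value or after quantile normalization. Cyp2t4 did not pass the filter.

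**Figure D4:**
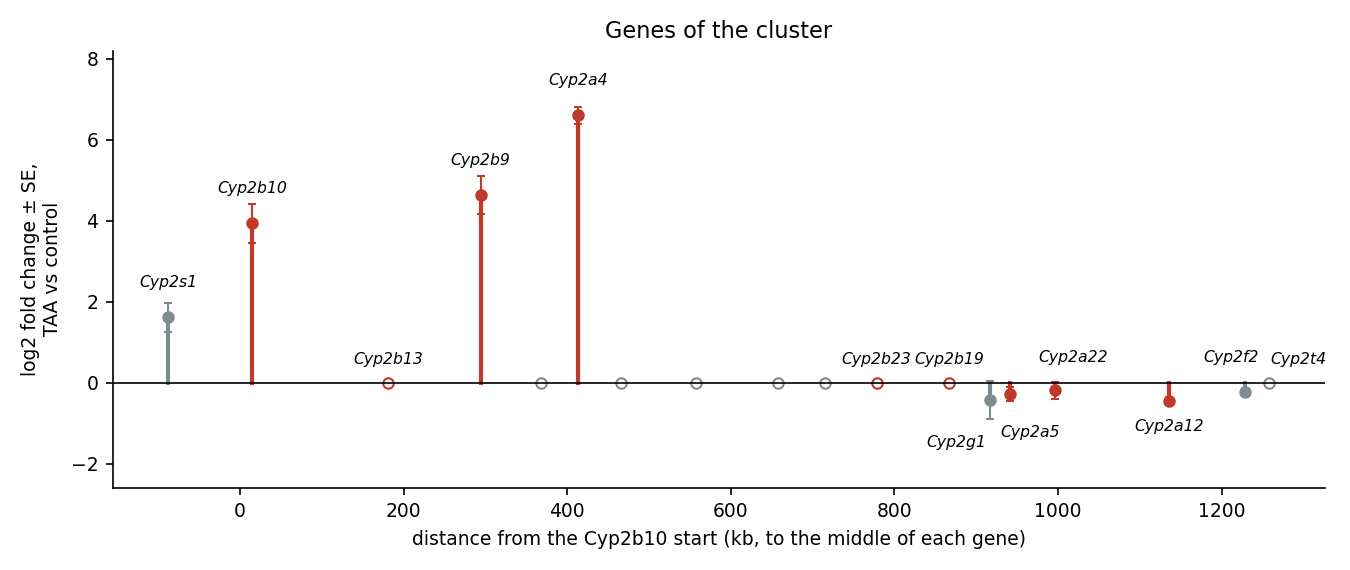
Log2 fold change ± SE between TAA and control livers (vertical axis) for genes of the cluster and its 3 neighbouring Cyp2 genes, by the distance in kb of the middle of each gene from the Cyp2b10 start (horizontal axis). Members are red, other genes grey, and open circles on the zero line are genes below the filter, which have no fold change; Cyp2b10, Cyp2b9 and Cyp2a4 stand at 3.94, 4.64 and 6.61.

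The upstream windows were searched on both strands for 4 short motifs in the 250 bases before each RefSeq start, and the shares refer to windows of the same length in front of 32851 genes. The STAT motif TTCNNNGAA was found in none of the 9 members and in 7.02% of all windows. The nuclear receptor motif TGACCT was found in 4 members (Cyp2b9, Cyp2b13, Cyp2b19 and Cyp2b23) and in 14.0% of all windows. The HNF4A core CAAAG was found in 7 members, all but Cyp2b19 and Cyp2b23, and in 48.6% of all windows. The antioxidant response element core TGANNNNGC was found in 6 members and in 35.2% of all windows. No matches of different motifs overlapped. Cyp2a4 and Cyp2a5 held the same number of matches for every motif, as did Cyp2a12 and Cyp2a22, and Cyp2b13 held the antioxidant core where Cyp2b9 did not. A match of so few letters describes the sequence and marks no binding site, and the absence of letters from this window says nothing about a factor.

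Genes around the members were described as lists named for their known roles. The lists were written with earlier results of these data known and are not independent evidence. In each list, genes were counted by the same limma criteria (Benjamini-Hochberg adjustment over all tested genes), and the median over all tested genes was 0.02 on the log2 scale between TAA and control and -0.01 between recovery and TAA. Among 15 genes of P450 electron transfer and heme synthesis, none was called higher and 2 lower in TAA livers (median -0.63). The median turned to 0.01 as deposited and 0.09 with quantile normalization. The 2 genes were Cpox, a heme synthesis enzyme (-1.37, adjusted p = 1.31e-05), and Cyb5a, the cytochrome that can donate an electron to P450s (-1.12, adjusted p = 1.32e-04), whose sign turned to 0.16 after quantile normalization. Por, which encodes P450 oxidoreductase, was at 259 ± 13.9 scaled FPKM in control, 131 ± 3.21 in TAA and 195 ± 26.2 in recovery livers. Its log2 difference between TAA and control was -0.98 (limma adjusted p = 7.77e-05), just short of the fold change of 2. This fall includes the log2 value of 0.64 by which the scaling lowered TAA livers, so it was smaller as deposited.

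Of 12 receptors and transcription factors known to act on Cyp2a5 or Cyp2b10, none was called higher and 6 lower in TAA livers, with a median of -0.89 (-0.25 as deposited, where 2 were called higher and 1 lower). Nr1i3, which encodes CAR, fell by 2.72 on the log2 scale (adjusted p = 2.75e-06), from 75.4 ± 1.63 scaled FPKM in control to 11.4 ± 1.21 in TAA livers, and rose by 2.03 (adjusted p = 2.28e-05) to 47.1 ± 6.93 in recovery livers. Cyp2b10, its classical target, was highest in the group in which Nr1i3 was lowest. These are mRNA levels, CAR activity was not measured, and its part in the Cyp2b10 change was not tested. The other named falls were Nr0b2 (-1.56), Cebpa (-1.48), Rxra (-1.25) and Hnf4a (-1.11), with adjusted p between 2.61e-05 and 1.50e-04 in limma, and of these Cebpa, Rxra and Hnf4a fell short of the fold change of 2 under both other scalings and Nr0b2 as deposited. Nr1i2, which encodes the pregnane X receptor PXR, differed by -0.66 (adjusted p = 5.76e-04) and Nfe2l2, which encodes NRF2, by 0.93 (adjusted p = 9.02e-05), and neither reached a fold change of 2. The -0.66 of Nr1i2 was about the size of the log2 value of 0.64 by which the scaling lowered TAA livers. No direction can therefore be given for Nr1i2. For Nfe2l2, the difference was 1.57 as deposited and 1.36 with quantile normalization.

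Among 10 other targets of CAR or PXR, 1 was called higher and 3 lower in TAA livers (median -0.39, turning to 0.25 as deposited and 0.51 with quantile normalization). Cyp2c55 rose from 0.696 ± 0.252 to 15.4 ± 6.92 scaled FPKM (log2 difference 4.25, limma adjusted p = 5.69e-05) and was at 1.17 ± 0.0794 in recovery livers. Ugt1a1, which conjugates bilirubin, fell by 2.46 (adjusted p = 9.95e-05), the carboxylesterase gene Ces2a fell by 2.37 (adjusted p = 3.46e-05) and Cyp2c29 fell by 1.31 (adjusted p = 3.42e-04), the last short of the fold change of 2 under both other scalings. CAR and PXR targets therefore did not move one way.

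Among 9 NRF2 targets, 6 were called higher and none lower in TAA livers (median 1.48), and 7 were called higher under both other scalings. Gsta1, a glutathione transferase gene, rose by 7.64 (limma adjusted p = 1.04e-04) and was called lower in recovery than in TAA livers (-5.72, adjusted p = 4.62e-06). Slc7a11, the cystine transporter gene, rose by 6.45 (adjusted p = 1.21e-05), Srxn1 rose by 1.59 (adjusted p = 3.67e-04) and Gstm1 rose by 1.59 (adjusted p = 8.08e-05). In recovery against TAA livers, 4 of the 9 were called lower and none higher.

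The genes that resembled Cyp2a4 most were themselves on the female-predominant list. By root mean square difference of centred log2 profiles over the 9 libraries, the nearest genes outside the subfamilies were Cyp3a16 (0.35), Cyp3a41a (0.36) and Cyp3a41b (0.38), which belong to a family of near-identical copies and may share reads. Cyp3a16 was listed at 0 in each of the 6 control and recovery libraries and averaged 7.41 ± 2.55 scaled FPKM in TAA livers. Cyp3a41a and Cyp3a41b averaged below 0.1 in control and in recovery livers. The size of these changes, and so of this likeness, depends on the 0.1 added to each value. The ranking was not repeated with another added value. Of 10 tested female-predominant genes other than the members, 7 were called higher and none lower in TAA livers (limma, median 1.47), against 4 higher and 1 lower after quantile normalization. In recovery against TAA livers, 7 were called lower and 1 higher (median -1.77). These counts depend in part on the filter, which Cyp3a16, Cyp3a41a, Cyp3a41b and Sult2a1 passed through their TAA values alone. Sult3a1, also listed, did not pass, at a mean of 0.0299 scaled FPKM in control, 0 in TAA and 0.0700 in recovery livers. Cyp3a41a rose by 7.02 (adjusted p = 7.66e-07), Cyp3a41b by 6.47 (adjusted p = 1.51e-06), Cyp3a16 by 6.18 (adjusted p = 4.04e-06) and Cyp3a44 by 2.58 (adjusted p = 1.54e-04).

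Of 12 male-predominant genes, none was called higher and 11 lower in TAA livers (median -4.88, and 10 lower after quantile normalization), and all 12 were called higher in recovery than in TAA livers (median 4.68, and 11 after quantile normalization). Mup7, a major urinary protein gene, fell by 10.87 on the log2 scale (limma adjusted p = 1.99e-06), from 6759 ± 1436 to 3.73 ± 1.70 scaled FPKM, and was at 2430 ± 998 in recovery livers. Elovl3, a fatty acid elongase gene, fell by 8.42 (adjusted p = 2.99e-07), Slco1a1, an anion transporter gene, fell by 7.17 (adjusted p = 5.40e-07), and Hsd3b5, a steroid dehydrogenase gene, fell by 6.56 (adjusted p = 1.38e-06). Of 11 growth hormone signalling genes, none was called higher and 3 lower in TAA livers (median -0.89), against 2 higher and 1 lower as deposited and 1 lower with quantile normalization. The 3 were Igfals (-1.65, adjusted p = 0.00688), Ghr, which encodes the growth hormone receptor (-1.47, adjusted p = 4.22e-05), and Igf1 (-1.41, adjusted p = 5.57e-05), and Ghr and Igf1 fell short of the fold change of 2 under both other scalings.

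Of 10 genes expressed around the central vein, of which Cyp1a2 is also among the CAR and PXR targets, none was called higher and 6 lower in TAA livers, with a median of -1.77 (limma), and 5 were called lower under each of the other scalings, where 1 was called higher as deposited. In recovery against TAA livers, 6 were called higher and none lower (median 2.05). Cyp2e1, the P450 known to activate TAA, fell by 3.65 (adjusted p = 3.58e-06), from 4409 ± 303 to 352 ± 44.9 scaled FPKM, and was at 3130 ± 162 in recovery livers. The glutamate transporter gene Slc1a2 fell by 8.62 (adjusted p = 2.19e-06), Oat, which encodes ornithine aminotransferase, fell by 6.17 (adjusted p = 3.58e-06) and Glul, which encodes glutamine synthetase, fell by 3.37 (adjusted p = 1.99e-06). The abundant Cyp2a5, Cyp2a12 and Cyp2a22 differed by -0.46 to -0.19 on the same scale.

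**Figure D5:**
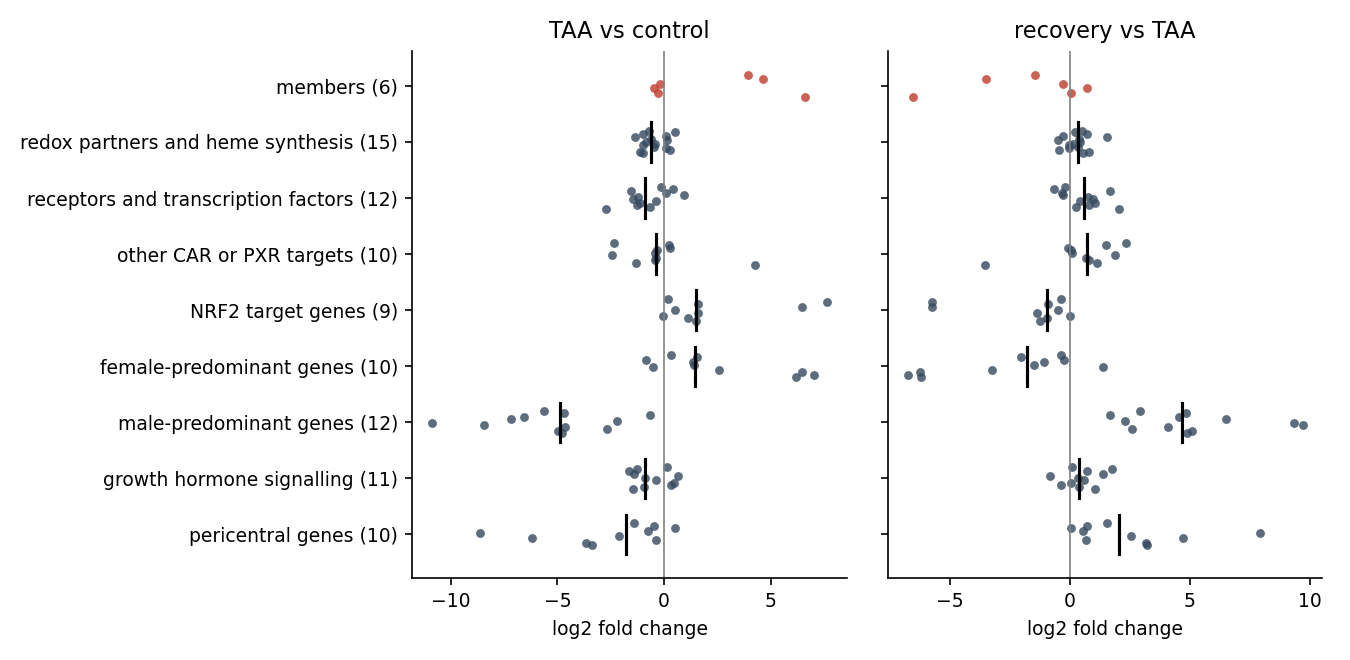
Log2 fold change on scaled FPKM (horizontal axes) of the 6 members above the filter (red) and of each list of related genes (dark points, number of genes in parentheses), for TAA against control and recovery against TAA. Vertical bars are list medians, such as -4.88 for the male-predominant and 1.47 for the female-predominant genes in TAA against control, and the members fall into 3 points near 0 and 3 points at 3.94 or above.

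For the other members, the nearest profiles were of varied genes. Those of Cyp2a5 were Papola (0.09), Sdhc (0.13) and Tnpo3 (0.13), those of Cyp2a12 were Mfsd4b5 (0.08), Ndufs5 (0.09) and Pigl (0.09), and those of Cyp2a22 were Ccnc (0.14), Cpeb1 (0.16) and Slc25a44 (0.16). Cyp2b9 was nearest to Mki67 (0.49), Ly6d (0.50) and Ccna2 (0.53), of which Mki67 and Ccna2 mark dividing cells. Cyp2b10 was nearest to an unnamed locus listed as XLOC_075179 (0.72), Prr11 (0.73) and Dhrs9 (0.73), at a distance larger than that of any other member from its nearest gene. Likeness over 9 libraries in 3 groups describes these profiles only.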

How the data were processed

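RNA from the livers of 9 mice was sequenced by the authors as 150-base read pairs, mapped to mm10 with HISAT2 2.2.1, counted on genes with featureCounts 1.5.0-p3 and deposited as FPKM, 1 column per mouse, with no further scaling. The annotation release, the strand setting and the treatment of reads with several matches are not given in the sources used here. Library scaling used median-of-ratios factors over the genes above 0 in all libraries. Groups were compared pairwise with limma 3.58.1 in R 4.3.3 (eBayes, mean-variance trend). Values were log2(scaled FPKM + 0.1) of genes averaging at least 0.1 deposited FPKM over the 9 libraries, with Benjamini-Hochberg adjustment over all of them. A gene high in 1 group alone could pass this filter through that group, as Slc7a11 did through TAA livers. A DEG had an FDR < 0.05 and a change of 2-fold or more. Fold changes on this scale understate those of low genes.

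Depth was estimated from fragment steps in genes with 1 transcript, where 53.9% to 65.9% of low values were whole within 0.08, so no count test was run. Transcript sequences came from GENCODE M21, promoter windows from RefSeq. The library scaling and the limma fit alone were tried on simulated libraries, in which few genes changed and in both directions. This trial did not cover libraries in which many genes change or most change 1 way. Members and lists were chosen with earlier results of these data known. Genes named from the lists are the up to 4 DEGs with the largest fold change in TAA against control, plus Por, Nr1i3, Nr1i2, Hnf4a, Nfe2l2, Cyp2e1 and neighbouring Cyp2 genes; likeness covers the 3 nearest genes. Of the marker lists, 2 of 7 macrophage, none of 6 endothelial and 1 of 8 lymphocyte genes were called higher in TAA livers and none lower, against 4, 0 and 5 as deposited and 2, 0 and 0 after quantile normalization, where the lymphocyte median was -0.36. Same-numbered mice deviated together with r of -0.0705 to 0.125, and differently numbered mice with r of -0.113 to 0.133. No pairing is stated, and the numbers were not taken to pair mice, although such values cannot exclude it. Alternatives covered the added value, the filter, the scaling, the fit and the mice used.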

Additional observations from a re-analysis of the deposited data

How the results depend on the processing

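Cyp2a4, Cyp2b9 and Cyp2b10 met the DEG criteria in TAA against control under all 16 alternatives, and Cyp2a4 and Cyp2b9 in recovery against TAA likewise. In recovery against TAA, Cyp2b10 was called as well on FPKM as deposited, with all 9 libraries in 1 fit, with the replicate block and without recovery 2, and Cyp2a5 after quantile normalization (3 members in each case, against 2). In recovery against control, where Cyp2b10 was the only member called, 0 members were called with 1 added, without the filter, without the trend, with the replicate block and without any 1 library (0 to 0).

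DEGs in TAA against control numbered 3520, against 1780 with 1 added in place of 0.1, 2204 for a mean FPKM of at least 1 and 1441 with limma's treat, which tests against a 2-fold change. DEGs in recovery against TAA numbered 3017, against 1460, 1895 and 1084 under the same settings. DEGs in recovery against control numbered 140, against 80 with 1 added, 48 without the filter, 235 with all 9 libraries in 1 fit, 85 without the trend and 0 with treat, where 88 genes had an unadjusted p under 0.05. Leaving out 1 library at a time gave 32 (without recovery 2) to 106. Replicate numbers are not stated to pair the mice, and a fit with the replicate block gave 3517, 3026 and 17 DEGs in the 3 comparisons. The share of DEGs called higher in TAA against control was 67.9%, against 91.2% as deposited and 53.1% with quantile normalization. In recovery against TAA it was 33.2%, 9.89% and 46.5%, and in recovery against control 58.6%, 69.3% and 55.2%. The differences of Cyb5a and Cyp2f2 between TAA and control turned to 0.157 and 1.01 with quantile normalization. Of 270 member values under alternatives, 24 moved by at least the spread between replicates, all with another added value or another scaling. No such move was possible under the other settings. The filter, the trend, the block and the joint fit leave a fold change as it is, and leaving out 1 library cannot shift it that far. The cause of these shifts was not tested. With 3 mice per group and few fragments, the levels of Cyp2b9 and Cyp2b13 are the least certain.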
